A study of Homo sapiens with 36 samples.

Results

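The genes described here carry chloride, bicarbonate, sodium and potassium ions across the intestinal epithelium, and they were followed in 18 mRNA libraries. The 8 genes were CFTR, SLC26A3, SLC26A6, SLC9A2, SLC9A3, SLC12A2, ATP1B1 and KCNQ1, chosen by gene symbol, and all 8 were found among the 60591 rows of the count table. The libraries came from Caco-2 and HT-29, both human colorectal cancer cell lines, with 3 replicates in each of 6 groups. Caco-2 cells had been kept under differentiation conditions for 21 days, and no such step was given for HT-29, so cell line and culture state cannot be told apart in any comparison between the lines. Cells of each line were exposed for 24 h to CoCl2 at 300 µM, to an oxyquinoline derivative (Oxy) at 5 µM, or to dimethyl sulfoxide alone at 0.5 µl per ml of medium (control). CoCl2 and Oxy were used to imitate hypoxia by blocking the enzymes that mark hypoxia-inducible factor for breakdown, and they were given at different doses. The labels give the Oxy cells the same amount of solvent as the controls. The amount of solvent is that of the labels, and the study's methods give a larger one. The CoCl2 stock was aqueous. The methods add the solvent to the CoCl2 medium as well, whereas the labels do not mention it there, and its part in the CoCl2 comparisons was not tested. The study's methods call the replicates biological. Those methods, also for the solvent, describe Caco-2 cultures and do not mention HT-29. The labels say nothing further of how the replicates of either line were kept apart.

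The intestinal lining moves salt in both directions, and water follows. In absorption, sodium-hydrogen exchangers and chloride-bicarbonate exchangers in the apical membrane work side by side and take up sodium and chloride. In secretion, a basolateral cotransporter loads the cell with chloride, which leaves through the apical channel CFTR, while potassium channels recycle potassium and the Na,K-ATPase keeps the sodium gradient that drives both processes.

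Total counts per library ran from 12925719 to 22332639. Values are CPM, counts relative to the library's size after trimmed mean of M values (TMM) scaling within a line, and RPKM where genes are compared with each other, since RPKM also divides by gene length. Calls required an edgeR false discovery rate (FDR) below 0.05 together with a log2 fold change beyond 1 in either direction, and "rose" and "fell" are used only for called genes. Both marker genes of the response to the agents were higher than control in each of the 4 treatment comparisons. VEGFA, a vascular growth factor, differed by log2 fold changes from 0.80 to 1.86 and EGLN3, a prolyl hydroxylase, by 0.20 to 3.99, both smallest in HT-29 with Oxy. In that comparison both passed the FDR alone and neither was called, and in Caco-2 with Oxy 1 of the 2 was called. All 6 epithelial markers had more than 3 counts in every library of both lines, but their levels moved with treatment. In HT-29, VIL1 fell from 205 CPM in controls to 33.6 CPM with CoCl2 and 92.5 CPM with Oxy, and CDX2 fell from 12.8 to 4.63 CPM with CoCl2. The other 4 were higher past the FDR there with CoCl2. EPCAM went from 475 to 606 CPM, CDH1 from 464 to 772 CPM, KRT8 from 2192 to 2977 CPM and KRT18 from 1468 to 1613 CPM. The sum of the 6 was 4804 to 4837 CPM in HT-29 controls, 5846 to 6179 CPM with CoCl2 and 5693 to 6128 CPM with Oxy. In Caco-2 with CoCl2, KRT8 and KRT18 rose by 1.06 and 1.35 on the log2 scale, and the summed level of the 6 was 7196 to 7974 CPM against 4645 to 4804 CPM in controls. VIL1 alone of the 6 was lower past the FDR there, at 443 CPM against 796 CPM in controls. The summed level of 5 enterocyte markers was 2704 to 3094 CPM in Caco-2 controls and 16.3 to 16.4 CPM in HT-29 controls, and that of 3 goblet cell markers was 36.4 to 46.1 CPM and 60.7 to 66.4 CPM. With CoCl2 the enterocyte sum was 3636 to 4314 CPM in Caco-2 and 9.22 to 10.1 CPM in HT-29, and with Oxy 2745 to 3009 CPM and 8.95 to 9.89 CPM. The Caco-2 sum was carried by APOA1, at 2545 CPM in controls and 3721 CPM with CoCl2. The other 4 enterocyte markers were lower past the FDR there, and 2 of them fell, SI from 289 to 115 CPM and FABP2 from 1.18 to 0.44 CPM. FABP2 rested on few counts, 8 to 27 per library in controls and 3 to 16 with CoCl2. The goblet sum was 22.1 to 24.7 CPM and 25.4 to 35.1 CPM with CoCl2, and 26.7 to 29.9 CPM and 40.6 to 41.6 CPM with Oxy. Its make-up differed between the lines. In Caco-2 controls TFF3 was at 40.7 CPM, MUC2 at 0.38 CPM and SPDEF at 0.34 CPM. HT-29 controls held TFF3 at 10.6 CPM, MUC2 at 22.5 CPM and SPDEF at 30.9 CPM. Of 7 genes of fibroblasts, leukocytes and endothelium, the sum was 19.0 to 39.8 CPM over Caco-2 libraries and 2.54 to 7.18 CPM over HT-29 libraries. In Caco-2 controls COL1A1 was at 25.1 CPM and PECAM1 at 8.84 CPM. COL1A1 in HT-29 was at 1.41 CPM in controls and 5.63 CPM with Oxy. DCN, PTPRC and CDH5 had 0 to 3 counts in each library of both lines. The part of these markers in the results below was not tested. In bulk RNA, fewer cells of a type and less RNA per cell cannot be told apart.

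Per unit of length, ATP1B1, the beta subunit of the Na,K-ATPase, had the highest level of the 8 genes in all 6 groups. In Caco-2 controls it stood at 125 ± 9.10 RPKM (SD, n = 3). CFTR followed at 40.3 ± 1.82 RPKM, then SLC26A3 at 26.9 ± 2.26 RPKM and SLC26A6 at 23.9 ± 2.19 RPKM, whose ranges over libraries overlapped. SLC12A2 at 6.84 ± 0.54 RPKM, SLC9A2 at 3.13 ± 0.25 RPKM, SLC9A3 at 0.98 ± 0.11 RPKM and KCNQ1 at 0.036 ± 0.019 RPKM completed the order, with no overlap between neighbours. In HT-29 controls the order was ATP1B1 at 138 ± 5.61 RPKM, SLC12A2 at 80.9 ± 2.15 RPKM, CFTR at 41.1 ± 0.86 RPKM, KCNQ1 at 4.95 ± 0.052 RPKM, SLC26A6 at 4.55 ± 0.39 RPKM, SLC9A3 at 0.46 ± 0.064 RPKM, SLC9A2 at 0.19 ± 0.011 RPKM and SLC26A3 at 0.053 ± 0.032 RPKM. Only KCNQ1 and SLC26A6 overlapped among the neighbours in that order.

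**Figure D1:**
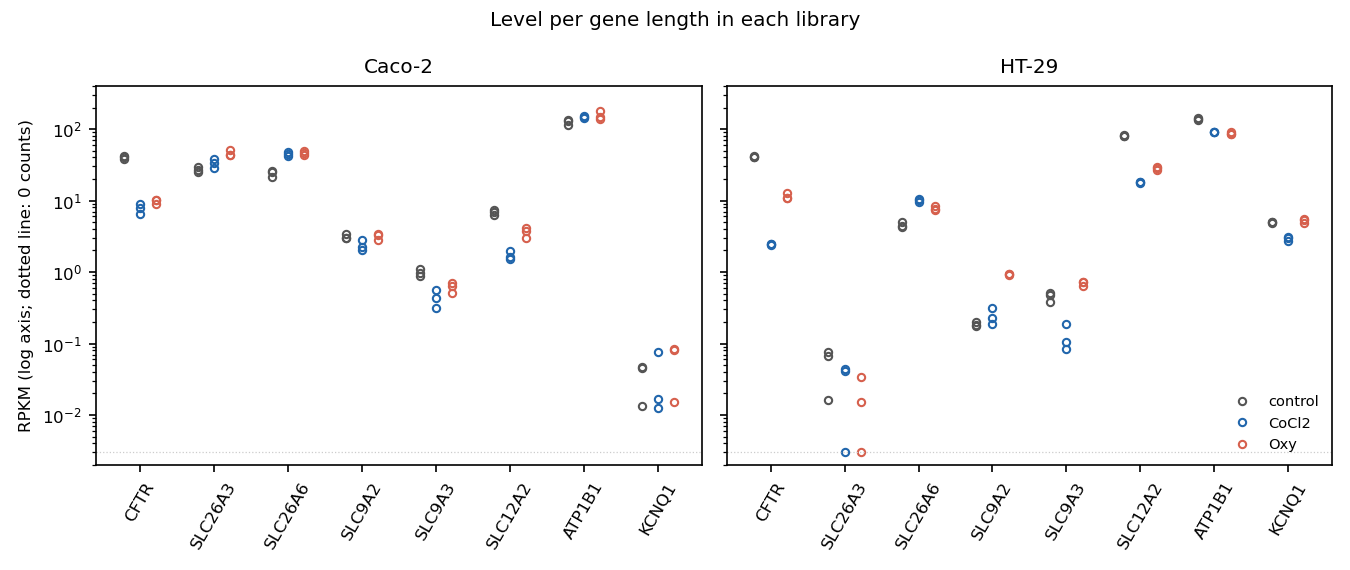
RPKM of the 8 genes on a log axis in each library of Caco-2 (left) and HT-29 (right), 3 points per gene and treatment, with points on the dotted line at 0 counts. ATP1B1 is highest in every group, KCNQ1 is near the bottom in Caco-2 and SLC26A3 in HT-29.

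HT-29 and Caco-2 controls, kept with solvent alone, were compared to see how mRNA levels of the transport genes differed without either agent. Of the 8 genes, 2 were higher in HT-29 and 4 were lower. Of all genes tested between the lines, 45.8% were called, 21.6% higher and 24.2% lower, and 79.1% passed the FDR, as did 7 of the 8 genes. SLC12A2, the basolateral sodium-potassium-chloride cotransporter NKCC1, was 12.6-fold higher in HT-29 (log2 fold change 3.65 ± 0.084, SE). KCNQ1, a potassium channel subunit, had 331, 399 and 575 counts in HT-29 controls and 1, 3 and 3 counts in Caco-2 controls. The ratio of the summed counts, 1305 to 7, was 153 after scaling, with a 95% exact binomial interval from 74.1 to 381 that covers counting error only.

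The absorptive exchangers were lower in HT-29. SLC26A3, the apical chloride-bicarbonate exchanger also called DRA, had 1543, 1481 and 1216 counts in Caco-2 controls and 4, 1 and 6 counts in HT-29 controls. Its scaled ratio of 4240 to 11 counts was 470 (95% exact binomial interval 262 to 941). SLC9A2, the sodium-hydrogen exchanger NHE2, was lower by a log2 fold change of -3.97 ± 0.16, and SLC26A6, the exchanger PAT1, by -2.30 ± 0.078. SLC9A3, the exchanger NHE3, differed by -1.03 ± 0.19, a call lost without HT-29 control replicate 3 (-0.89) or Caco-2 control replicate 3 (-0.94). CFTR did not pass the test, at 0.12 with a 95% interval from -0.03 to 0.27 (edgeR FDR = 0.142), and ATP1B1 passed the FDR alone at 0.23 ± 0.072.

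CFTR is the cyclic AMP-gated chloride and bicarbonate channel whose loss causes cystic fibrosis. It is annotated at chr7:117287120-117715971 on the plus strand (GRCh38, GENCODE v44). In Caco-2 the control libraries held 378, 407 and 412 CPM, the CoCl2 libraries 64.6, 88.1 and 78.2 CPM, and the Oxy libraries 89.5, 99.8 and 102 CPM. In HT-29 the controls held 407, 398 and 415 CPM, the CoCl2 libraries 24.6, 24.6 and 23.9 CPM, and the Oxy libraries 109, 126 and 109 CPM. Every treated library of a line lay below every control of that line, and every CoCl2 library lay below every Oxy library. CFTR fell with CoCl2, with a log2 fold change of -2.37 ± 0.092 for Caco-2 (edgeR FDR = 9.95e-17) and -4.06 ± 0.064 for HT-29 (edgeR FDR = 4.03e-27). It also fell with Oxy, at -2.04 ± 0.091 for Caco-2 and -1.83 ± 0.053 for HT-29. The antisense neighbour CTTNBP2, which overlaps the CFTR locus in GENCODE v44, held 6 to 209 counts per library against at least 290 for CFTR. Genes were counted on GENCODE 34, where this overlap was not checked.

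SLC12A2 (chr5:128083766-128189677, plus strand) moved in the same direction. Its levels in Caco-2 were 73.6, 66.4 and 77.6 CPM in controls, 16.3, 20.9 and 17.3 CPM with CoCl2, and 32.2, 43.5 and 40.2 CPM with Oxy. In HT-29 they were 883, 841 and 847 CPM in controls, 187, 194 and 191 CPM with CoCl2, and 301, 315 and 283 CPM with Oxy. The 3 groups of each line did not overlap, with CoCl2 lowest. SLC12A2 fell with CoCl2 in both lines, with log2 fold changes of -1.997 ± 0.11 (Caco-2) and -2.17 ± 0.048 (HT-29), and with Oxy in HT-29 (-1.52 ± 0.046). In Caco-2 with Oxy its log2 fold change of -0.91 ± 0.11 passed the FDR but not the fold limit.

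Bases 250 to 51 before the RefSeq start (GRCh38.p14) are shown for the 2 genes lowered most often and for SLC9A3 and SLC26A6, which differed from them. Capitals mark ACGTG or GCGTG on either strand, the letters at the core of the site that hypoxia-inducible factor binds. The windows are chr7:117479775-117479974 (plus strand) for CFTR, chr5:128083516-128083715 (plus strand) for SLC12A2, chr5:524500-524699 (minus strand) for SLC9A3 and chr3:48635512-48635711 (minus strand) for SLC26A6. The CFTR window lies inside the gene interval given above, since the RefSeq start differs from the start of that annotation.
CFTR: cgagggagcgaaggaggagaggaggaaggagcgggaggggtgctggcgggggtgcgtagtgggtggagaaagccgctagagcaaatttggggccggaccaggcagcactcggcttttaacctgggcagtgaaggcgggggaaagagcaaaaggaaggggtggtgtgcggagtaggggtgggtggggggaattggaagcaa
SLC12A2: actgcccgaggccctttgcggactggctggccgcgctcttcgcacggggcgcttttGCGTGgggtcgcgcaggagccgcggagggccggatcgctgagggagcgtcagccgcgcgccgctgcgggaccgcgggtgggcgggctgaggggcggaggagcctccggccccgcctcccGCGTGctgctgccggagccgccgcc
SLC9A3: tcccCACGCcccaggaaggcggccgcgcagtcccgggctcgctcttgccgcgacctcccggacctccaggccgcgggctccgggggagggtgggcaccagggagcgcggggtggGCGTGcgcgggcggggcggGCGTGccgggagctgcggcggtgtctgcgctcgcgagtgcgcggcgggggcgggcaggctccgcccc
SLC26A6: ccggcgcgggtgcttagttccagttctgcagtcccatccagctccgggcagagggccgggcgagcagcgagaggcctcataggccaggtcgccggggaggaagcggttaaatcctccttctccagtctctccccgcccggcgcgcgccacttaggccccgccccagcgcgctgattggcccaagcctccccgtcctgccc
CFTR and SLC26A6 held 0 matches, SLC12A2 held 2 and SLC9A3 held 3. ATP1B1 held 1 match, and SLC26A3 and SLC9A2 held 0. All matches in SLC12A2 and SLC9A3 were GCGTG, with 0 of ACGTG. The share of G and C was 63% in the CFTR window, 79% in SLC12A2, 82.5% in SLC9A3 and 70.5% in SLC26A6. Of 35116 RefSeq promoter windows of the same length, 35.8% held at least 1 match, without matching for G and C. RefSeq windows were matched for 7 of the 8 genes, without KCNQ1. The letters TGCNCNC were also sought, a looser form of TGCRCNC (R is A or G), the core of the metal response element. They were found on either strand once each in SLC26A6 and ATP1B1, at 2 places in SLC9A2 and 3 in SLC9A3. No match was found in CFTR, SLC12A2 or SLC26A3, against 41.4% of all windows with a match. The SLC26A6 match (TGCTCGC) and some of those in SLC9A2 and SLC9A3 lack the A or G of that core. A match is a description of these letters and not a bound site.

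**Figure D2:**
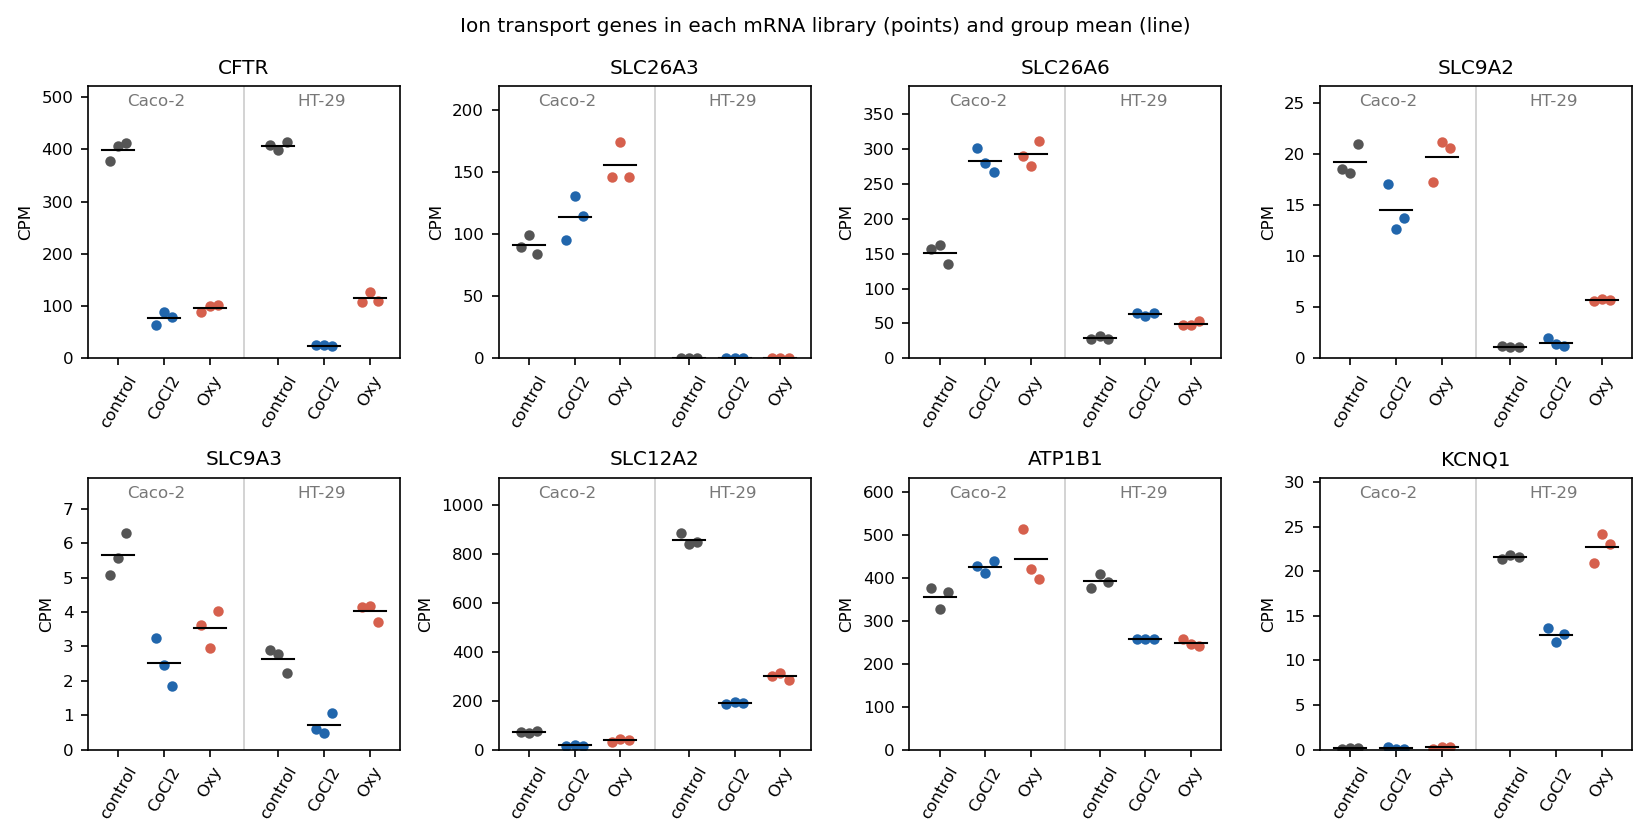
CPM of each of the 8 genes in every library (points) with group means (lines), on a linear axis from 0 with its own scale per gene, Caco-2 on the left of each panel and HT-29 on the right. CFTR and SLC12A2 lie below control in all 4 treated groups, and SLC9A2 in HT-29 stands apart with Oxy.

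In Caco-2 with CoCl2, 7 of the 8 genes could be tested, and 3 of them fell. Of all genes tested there, 23.4% were called and 14.2% were called lower. All 7 passed the FDR, against 64.7% of all genes. SLC9A3 was the third gene that fell, beside CFTR and SLC12A2. It had 87, 83 and 91 counts in controls and 39, 34 and 34 counts with CoCl2, with no overlap in CPM, and its log2 fold change was -1.19 ± 0.22. The call was lost without CoCl2 replicate 3 (-0.98) and with limma on the deposited log2 values (-0.48). With Oxy it had 54, 49 and 57 counts and a log2 fold change of -0.68 ± 0.21, which passed the FDR alone. SLC9A3 lies at chr5:470456-524449 on the minus strand. SLC9A3-AS1, transcribed from the other strand of this locus, had 67 to 786 counts per library and its mean level followed the same order of groups, at 40.4, 14.5 and 28.2 CPM in Caco-2 (control, CoCl2, Oxy) and 22.7, 5.36 and 40.7 CPM in HT-29. The library kit keeps the strand, but whether the counting used it was not stated, so reads of the pair may not have been told apart.

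SLC26A6, at chr3:48625723-48635493 on the minus strand, stood above control in all 4 treated groups. In Caco-2 it had 157, 162 and 136 CPM in controls, 302, 280 and 268 CPM with CoCl2, and 290, 276 and 311 CPM with Oxy. The treated libraries lay above all controls and overlapped each other, and the log2 fold changes of 0.90 ± 0.080 and 0.95 ± 0.080 passed the FDR but not the fold limit. SLC26A3 (chr7:107765467-107803225, minus strand) had 89.8, 99.3 and 84.2 CPM in Caco-2 controls, 95.6, 131 and 114 CPM with CoCl2, and 146, 174 and 146 CPM with Oxy. The CoCl2 and control groups overlapped, and the Oxy group lay above both. Its log2 fold changes were 0.32 ± 0.098 and 0.77 ± 0.098, both past the FDR alone, and that for CoCl2 was -0.001 when libraries were scaled by their size only.

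The remaining genes had smaller differences in Caco-2. SLC9A2 (chr2:102619553-102711355, plus strand) had 18.6, 18.2 and 21.0 CPM in controls, 17.1, 12.6 and 13.7 CPM with CoCl2, and 17.2, 21.2 and 20.5 CPM with Oxy. CoCl2 libraries were all below the controls (log2 fold change -0.42 ± 0.13, past the FDR alone), while Oxy and control overlapped (0.03, 95% interval -0.22 to 0.29). ATP1B1 (chr1:169105697-169310992, plus strand) had 375, 326 and 365 CPM in controls, 426, 410 and 439 CPM with CoCl2, and 514, 420 and 398 CPM with Oxy. Both treated groups lay above the controls, with log2 fold changes of 0.26 ± 0.085 and 0.32 ± 0.085 that passed the FDR alone. With scaling by library size only they were -0.064 and 0.16, and neither passed (edgeR FDR = 0.470 and 0.0857). Without control replicate 2 the CoCl2 value was 0.20 and did not pass either (edgeR FDR = 0.0862). KCNQ1 (chr11:2444654-2849105, plus strand) had 1 to 6 counts in each Caco-2 library and was not tested there. Its antisense neighbour KCNQ1OT1 had 538 to 3244 counts over all libraries. With Oxy, 1 of the 7 tested genes was called, CFTR, which fell, against 11.7% of all genes called and 7.27% called lower, and 6 passed the FDR against 50.4%.

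In HT-29 with CoCl2, 3 genes fell and 1 rose of 7 tested, against 41.3% of all genes called, 23.9% lower and 17.4% higher, and 6 passed the FDR against 82.8%. The genes that fell were again CFTR, SLC12A2 and SLC9A3. SLC9A3 had 45, 51 and 59 counts in controls and 8, 7 and 13 with CoCl2, a log2 fold change of -1.87 ± 0.27. The deposited log2 table lists SLC9A3 at 0 in all 9 HT-29 libraries, so limma on it gave no value for this gene in that line. SLC26A6 rose, from 28.0, 31.7 and 27.0 CPM in controls to 65.1, 61.0 and 65.6 CPM, by a log2 fold change of 1.15 ± 0.065. The call was lost with scaling by library size only (0.52) and with limma on the deposited log2 values (0.92). KCNQ1 had 21.4, 21.8 and 21.6 CPM in controls and 13.7, 12.0 and 13.0 CPM with CoCl2, and its log2 fold change of -0.75 ± 0.084 passed the FDR alone, but was called at -1.38 with scaling by library size only. ATP1B1 had 377, 408 and 391 CPM in controls and 258 CPM in each CoCl2 library, with a log2 fold change of -0.60 ± 0.046 that passed the FDR alone and was called at -1.24 with that scaling. SLC9A2 had 19, 20 and 30 counts in controls and 26, 20 and 14 with CoCl2. These groups overlapped in CPM, and the log2 fold change of 0.39 (95% interval -0.12 to 0.90, edgeR FDR = 0.150) did not pass and was -0.24 with scaling by library size only. SLC26A3, at 0 to 6 counts in each HT-29 library, was not tested within that line.

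With Oxy in HT-29, 2 genes fell and 1 rose of 7 tested, against 17.1% of all genes called, 7.57% lower and 9.50% higher, and 6 passed the FDR against 68.8%. SLC9A2 rose. Its counts were 108, 99 and 107, or 5.59, 5.76 and 5.69 CPM, against 1.23, 1.09 and 1.13 CPM in controls, a 4.94-fold difference (log2 fold change 2.31 ± 0.18, edgeR FDR = 9.17e-12). With limma on the deposited log2(RPKM + 1) values, which understate changes of low genes, it was 0.70. SLC9A3 had 80, 72 and 70 counts with Oxy, all above the controls in CPM, and its log2 fold change of 0.63 ± 0.17 passed the FDR alone. SLC26A6 had 48.1, 47.3 and 52.8 CPM, also all above the controls, at 0.78 ± 0.064 past the FDR alone. ATP1B1 had 257, 245 and 242 CPM, all below the controls, at -0.66 ± 0.045 past the FDR alone. KCNQ1 had 21.0, 24.2 and 23.0 CPM, overlapped the controls and did not pass the test (0.07, 95% interval -0.08 to 0.22).

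**Figure D3:**
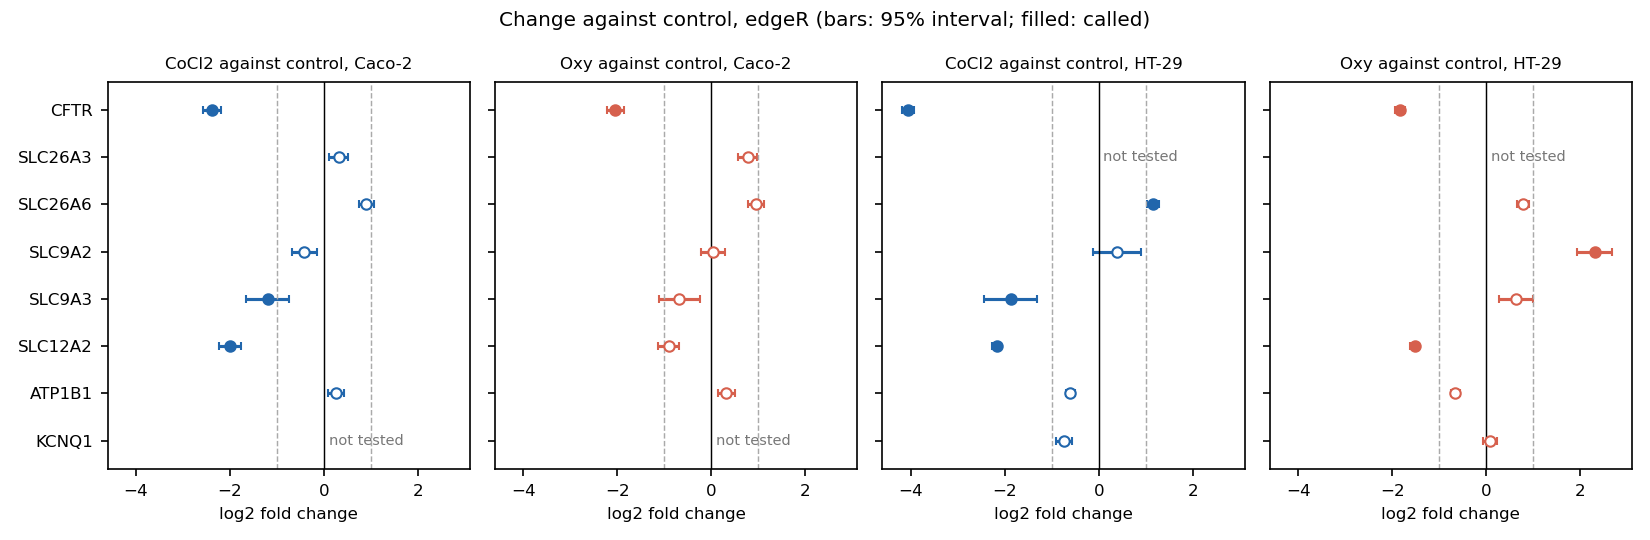
Log2 fold change against control with 95% intervals (bars) for the 8 genes in the 4 treatment comparisons, filled where called, with dashed lines at -1 and 1. CFTR is called in all 4 panels and SLC12A2 in 3, while SLC9A3 is called lower with CoCl2 in both lines and not with Oxy.

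The agents were then compared with each other within a line, at their different doses. In Caco-2, 1 of 7 genes was called, against 11.7% of all genes called and 6.44% called lower, and 4 passed the FDR against 49.6%. SLC12A2 was lower with CoCl2 than with Oxy by a log2 fold change of -1.09 ± 0.11, a call lost without Oxy replicate 2 (-0.99) and with limma on the deposited log2 values (-0.77). CFTR (-0.33), SLC26A3 (-0.45) and SLC9A2 (-0.45) passed the FDR alone. SLC26A6 (-0.05, 95% interval -0.21 to 0.11), ATP1B1 (-0.06, -0.24 to 0.11) and SLC9A3 (-0.52, -0.999 to -0.03, edgeR FDR = 0.0694) did not pass. In HT-29, 3 of 7 were lower with CoCl2, against 29.9% of all genes called and 19.2% called lower, and 6 passed the FDR against 77.7%. These were CFTR at -2.23 ± 0.065, SLC9A3 at -2.51 ± 0.25 and SLC9A2 at -1.92 ± 0.19. With limma on the deposited log2 values SLC9A2 was not called (-0.65) and SLC9A3, at 0 throughout, had no value. With scaling by library size only, SLC12A2 (-1.15) and KCNQ1 (-1.31) were called as well. SLC12A2 (-0.66), KCNQ1 (-0.82) and SLC26A6 (0.37) passed the FDR alone, and ATP1B1 did not pass (0.06, 95% interval -0.04 to 0.15).

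Whether the lines differed in response was tested as an interaction over all 18 libraries. For CoCl2, 1 of 8 genes was called, against 21.6% of all genes called and 13.8% called lower, and 3 passed the FDR against 49.8%. The gene called was CFTR, whose log2 fold change was lower in HT-29 than in Caco-2 by -1.80 ± 0.12. ATP1B1 (-0.97 ± 0.10) and SLC9A2 (0.70 ± 0.29, edgeR FDR = 0.0449) passed the FDR alone. The SLC9A2 value rests on 14 to 30 counts per HT-29 control or CoCl2 library. It ran from 0.47 to 0.82 when a library was left out, and its FDR reached 0.267 among the alternatives. For Oxy, 3 of 8 were called against 15.2% of all genes, 8.96% higher and 6.24% lower. SLC9A2 differed by 2.25 ± 0.22 and SLC9A3 by 1.29 ± 0.27, both higher in HT-29. The SLC9A3 response to Oxy lay below 0 in Caco-2 and above 0 in HT-29. SLC26A3 differed by -2.41 ± 0.95, which rests on 0 to 6 counts per HT-29 library, and the call was lost when any of HT-29 control replicates 1 or 3 or Oxy replicates 1 or 3 was left out (FDR up to 0.170) and with scaling by library size only (edgeR FDR = 0.0555). ATP1B1 (-0.996 ± 0.10) and SLC12A2 (-0.62 ± 0.11) passed the FDR alone, so that 5 of 8 passed the FDR against 42.9% of all genes. For CFTR the Oxy responses did not pass as different (0.19, 95% interval -0.02 to 0.41).

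Ratios of RPKM within a library compare members without library scaling. SLC26A6 to CFTR, the exchanger to the channel, had a geometric mean of 0.591 in Caco-2 controls, 5.78 with CoCl2 and 4.71 with Oxy. In HT-29 it was 0.110, 4.09 and 0.674. SLC26A6 stood above CFTR in both treated groups of Caco-2 and in HT-29 with CoCl2, and below it in HT-29 with Oxy and in both control groups. SLC26A3 to CFTR in Caco-2 was 0.665, 4.30 and 4.66.

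**Figure D4:**
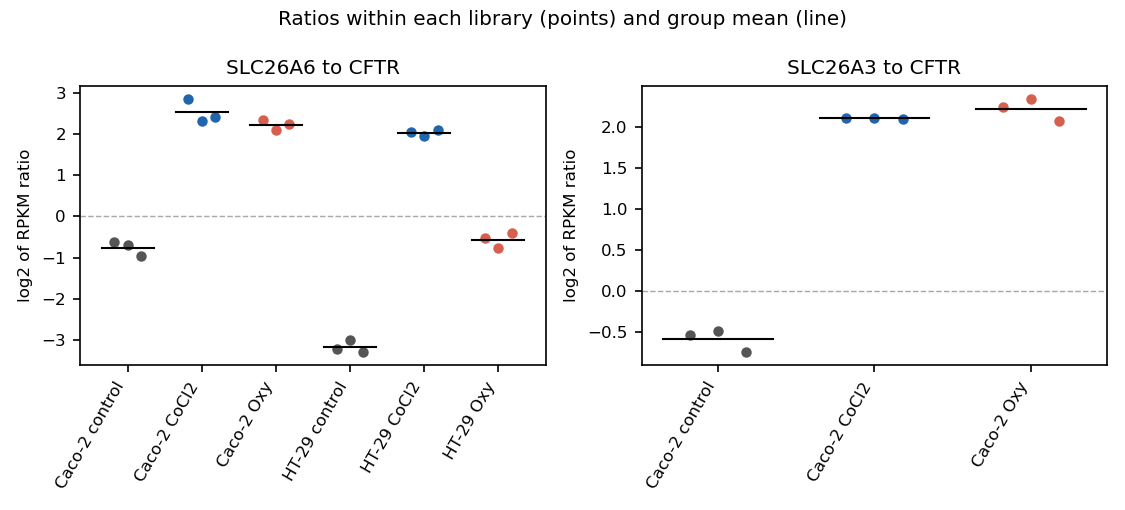
Log2 of the RPKM ratio of SLC26A6 to CFTR and of SLC26A3 to CFTR (Caco-2 only) in each library (points) with group means (lines), the dashed line marking equal levels. SLC26A6 to CFTR crosses that line in 3 of the 4 treated groups.

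The rest of the pathway was described by 57 other transport genes and regulators in 5 lists. In Caco-2, 42 could be tested. With CoCl2, 8 were called against 23.4% of all genes. Of these 4 rose and 4 fell, with a median log2 fold change over the 42 of 0.10 beside -0.03 over all genes. With Oxy, 6 were called against 11.7% of all genes, and 5 rose and 1 fell (0.06 beside -0.02). In HT-29, 40 could be tested. With CoCl2, 17 were called, a share near the 41.3% of all genes. Of these 3 rose and 14 fell, against 17.4% and 23.9% of all genes (median -0.35 beside -0.03). With Oxy, 6 were called, near the 17.1% of all genes, and 4 rose and 2 fell (0.07 beside 0.01).

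By role, SLC12A7, a potassium-chloride cotransporter, rose in HT-29 with CoCl2 (1.93 ± 0.049) and with Oxy (1.21 ± 0.049), whereas the chloride channel CLCN2 (-1.67 ± 0.092), the sulfate exchanger SLC26A2 (-1.55 ± 0.12) and the sodium-bicarbonate cotransporter SLC4A4 (-1.30 ± 0.11) fell with CoCl2. PDZK1, a scaffold that binds apical transporters, fell in HT-29 with CoCl2 (-2.46 ± 0.16) and Oxy (-1.35 ± 0.13). FXYD5, an auxiliary subunit of the Na,K-ATPase, rose in all 4 comparisons, by 2.28 (CoCl2) and 2.48 (Oxy) in Caco-2 and by 1.11 and 1.05 in HT-29. FXYD3, of the same family, rose in Caco-2 with CoCl2 (1.69 ± 0.13).

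Potassium channels hold the membrane potential that drives chloride out of the cell. KCNE3, the subunit that pairs with KCNQ1 in colon, had 53.2, 50.3 and 50.3 CPM in HT-29 controls and 11.4, 12.0 and 12.0 CPM with CoCl2, and fell, with a log2 fold change of -2.12 ± 0.079. It passed the FDR alone with Oxy in HT-29 (-0.85) and in Caco-2 with CoCl2 (-0.89) and Oxy (-0.56). KCNK1 rose in HT-29 with CoCl2 (2.13 ± 0.069) and Oxy (1.16 ± 0.071). KCNK6 rose in Caco-2 with CoCl2 (1.58 ± 0.098) and fell in HT-29 with CoCl2 (-1.05 ± 0.065), and KCNK5 fell in Caco-2 with CoCl2 (-1.03 ± 0.095). These 3 channels belong to the KCNK family, which sets the resting membrane potential. SCNN1A, the alpha subunit of the epithelial sodium channel, was called in none of the 4 comparisons, with log2 fold changes from -0.87 to 0.04.

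Regulators of salt transport included kinases of the WNK family, which control cation-chloride cotransporters. WNK2 fell in Caco-2 with CoCl2 (-2.35 ± 0.19) and Oxy (-1.59 ± 0.17) and in HT-29 with CoCl2 (-1.84 ± 0.089). WNK4 fell in HT-29 with CoCl2 (-2.94 ± 0.093) and Oxy (-1.49 ± 0.072). The scaffold SHANK2 fell in HT-29 with CoCl2 (-1.73 ± 0.15) and PRKG2, a cyclic GMP-dependent kinase that acts on CFTR, in Caco-2 with CoCl2 (-1.31 ± 0.17). GUCA2A, which encodes the hormone guanylin, rose in Caco-2 with Oxy (1.39 ± 0.13), as did the kinase OXSR1 (1.13 ± 0.076), which acts below WNK kinases.

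**Figure D5:**
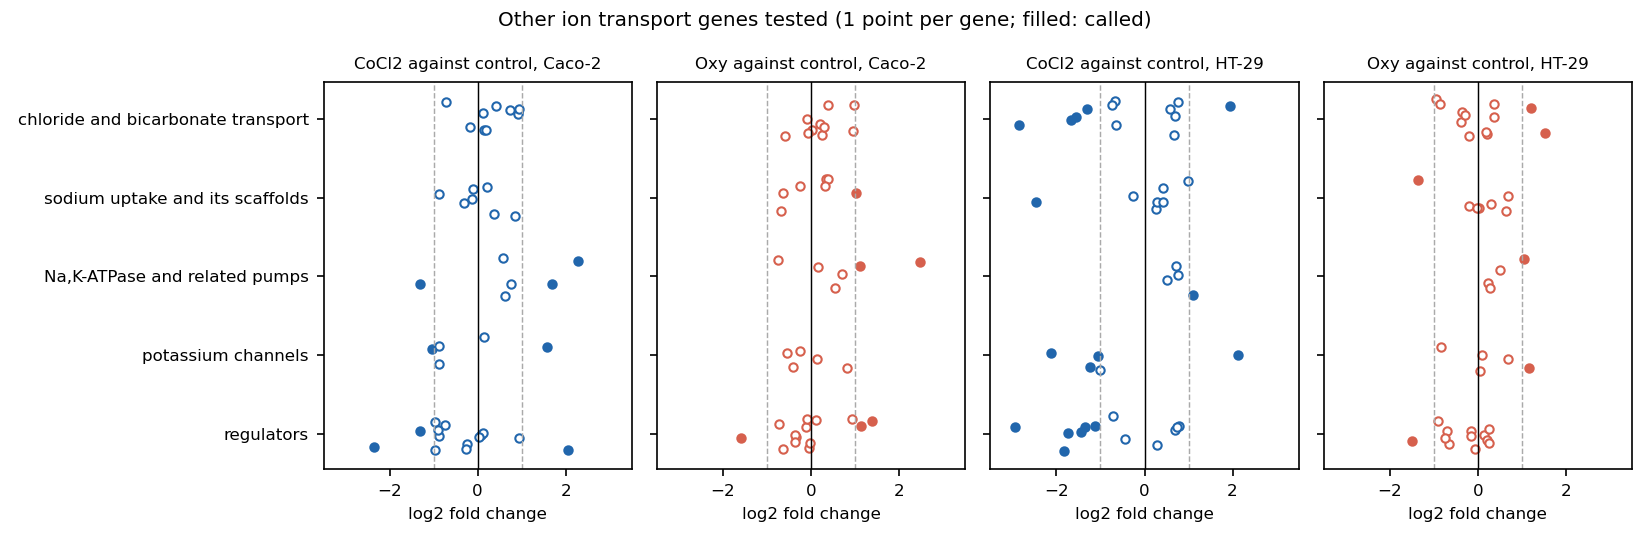
Log2 fold change against control of the other transport genes tested, 1 point per gene, by list (rows) and comparison (panels), filled where called, with dashed lines at -1 and 1 and vertical spread within a row for legibility. Of the tested genes, 14 of 40 are called lower in HT-29 with CoCl2, where 23.9% of all genes were called lower.

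For each gene called in a line, the genes with the most similar profile over the 9 libraries of that line were named by the mean absolute difference of centred log2 CPM. For CFTR these were DEFB1 (0.136) and LGR5 (0.161) in Caco-2 and F2R (0.0907) and ANXA13 (0.129) in HT-29. For SLC12A2 they were PLPP6 (0.0614) and CTSO (0.0714) in Caco-2 and PIGW (0.0504) and SNHG4 (0.0538) in HT-29. For SLC9A3 they were ST3GAL2 (0.120) and RABEPK (0.133) in Caco-2 and AC007191.1 (0.205) and ZNF514 (0.205) in HT-29. In HT-29 they were SSR2 (0.0524) and SGSH (0.0589) for SLC26A6, and TNFAIP2 (0.188) and GPSM1 (0.198) for SLC9A2. The search covered 10980 genes in Caco-2 and 10605 in HT-29.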

How the data were processed

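Groups came from the sample labels. The authors deposited raw counts per gene and a table of log2(RPKM + 1) values; per the labels and the study's methods, reads were trimmed with cutadapt 2.10 and aligned with STAR 2.7.5b to GRCh38.p13, and genes were counted on GENCODE 34, with use of strand not stated. The deposited log2 table, of 14230 genes, gave the gene lengths behind RPKM and an alternative test with limma 3.58.1.

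Counts were fitted with edgeR 4.0.16 in R 4.3.3 (TMM, filterByExpr, two-sided quasi-likelihood F test, Benjamini-Hochberg over all genes tested), over the 9 libraries of a line for treatments and over all 18 for differences between lines. SE was derived from the F statistic. In simulated counts with 200 changed genes in each fit, the edgeR step was tested before use. Alternatives were DESeq2 1.42.0, scaling by library size, no low-count filter, a replicate block and leaving out each library.

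The genes and lists were chosen with earlier results of these data known. Named partner genes were called, had a mean count of at least 50 and were among the 3 highest or lowest of a list; KCNE3 and SCNN1A were named regardless, and a further gene of that rule is not reported here. Similar profiles were sought among genes with a mean of at least 5 CPM; the rule names log2 CPM without a pseudocount, so genes with a 0 in any library of the line were left out. Intervals on counts were taken on sums over the libraries of a group, so they leave out the spread between replicates. No molecular identifiers were used, so copied reads could not be told from separate molecules in these counts. The miRNA libraries were not used here.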

Additional observations from a re-analysis of the deposited data

Results flagged for a closer look

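The response to an agent differed between the lines, by the interaction test over 18 libraries, for 4 results. CFTR differed in its CoCl2 response by -1.80, with a lower log2 fold change in HT-29. In the Oxy response SLC9A2 differed by 2.25 and SLC9A3 by 1.29, both higher in HT-29. SLC26A3 differed in the Oxy response by -2.41, on 11 summed counts in HT-29 controls and 3 with Oxy. This last call did not hold when any of 4 HT-29 libraries was left out (control replicates 1 or 3, Oxy replicates 1 or 3, edgeR FDR up to 0.170) or with scaling by library size only (edgeR FDR = 0.0555). Line and culture state cannot be told apart in these values.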

How the results depend on the processing

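Of 942 values of single genes under an alternative, 869 kept their direction and side of the threshold, 41 gained a call, 15 lost one and 17 changed sign. Of 129 counts of called members, 17 moved by over 1.5 times. These totals include the FDR alone without a fold limit, which reused the main fit. Under it no gene could change sign or lose a call, and most of the 41 gains came from it. With the FDR alone and no fold limit, the members called were 7 and 6 in Caco-2 (CoCl2, Oxy), 6 in HT-29 with Oxy, 4 and 6 for CoCl2 against Oxy in Caco-2 and HT-29, and 3 and 5 for the line difference in CoCl2 and Oxy response. Scaling by library size only moved the median over all genes (log2) from -0.03 to -0.35 (CoCl2) and from -0.02 to -0.18 (Oxy) in Caco-2, and from -0.03 to -0.66 and from 0.01 to -0.13 in HT-29. All genes called higher and lower then went from 1464 and 2283 to 870 and 3546 (CoCl2, Caco-2), from 711 and 1165 to 500 and 1644 (Oxy, Caco-2), from 2749 and 3775 to 1295 and 6250 (CoCl2, HT-29) and from 1502 and 1197 to 1225 and 1596 (Oxy, HT-29). It called 2 members for Oxy in Caco-2 (with SLC12A2 at -1.058), 5 for CoCl2 in HT-29 (with ATP1B1 at -1.237 and KCNQ1 at -1.378, without SLC26A6), 5 for CoCl2 against Oxy in HT-29 (with SLC12A2 at -1.153 and KCNQ1 at -1.314) and 2 for the line difference in CoCl2 response (with ATP1B1 at -1.172). It turned SLC26A3 (-0.001) and ATP1B1 (-0.064) with CoCl2 and SLC9A2 (-0.119) with Oxy in Caco-2, SLC9A2 (-0.240) with CoCl2 and KCNQ1 (-0.064) with Oxy in HT-29, SLC26A6 (-0.127) and ATP1B1 (-0.440) for CoCl2 against Oxy in HT-29, and SLC26A6 (-0.065) in the line difference for CoCl2. With limma on the deposited log2 values the members called were 0 for CoCl2 against Oxy in Caco-2, 2 for CoCl2 in HT-29 and 1 for CoCl2 against Oxy in HT-29, where SLC9A3, listed at 0 in every HT-29 library of that table, could not be tested and counts as not called; SLC9A2 with Oxy in Caco-2 was -0.005 (-0.008 with a pseudocount of 0.1), and ATP1B1 for CoCl2 against Oxy in HT-29 was -0.011 under both, and -0.037 with all 18 libraries in 1 fit. These causes were not tested.

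Leaving out each library gave 0 to 1 members called for CoCl2 against Oxy in Caco-2 (0 without Oxy replicate 2), 2 to 3 for CoCl2 in Caco-2, 1 to 2 for the line difference in CoCl2 response (2 without Caco-2 control replicate 1, HT-29 control replicate 1 or HT-29 CoCl2 replicate 3), 2 to 4 for that in Oxy response and 5 to 6 between untreated lines. SLC9A2 with Oxy in Caco-2 ran from -0.023 (without Oxy replicate 2) to 0.119 and was -0.006 without control replicate 2, ATP1B1 for CoCl2 against Oxy in Caco-2 ran from -0.138 to 0.065 (without Oxy replicate 1), and KCNQ1 in the line difference for CoCl2 ran from -1.206 to 0.329 (without Caco-2 CoCl2 replicate 1). Same-numbered libraries gave no sign of pairing. Their correlations of deviations ran from -0.055 to 0.068 in Caco-2 and -0.037 to 0.025 in HT-29, with 0 of 9 pairs over 0.1 in each line. Libraries of different numbers gave -0.090 to 0.096 and -0.043 to 0.036. Such values cannot show whether the cultures were handled in pairs. With the replicate block the members called stayed at 3, 1, 4 and 3 in the 4 treatment comparisons. A pseudocount of 0.5 CPM in the search for similar profiles, an alternative chosen after seeing the data, kept 10 of the 16 named pairs and replaced LGR5 for CFTR, PLPP6 for SLC12A2 and ST3GAL2 for SLC9A3 in Caco-2, and SGSH for SLC26A6 and both genes for SLC9A3 in HT-29. Counts of 0 to 6 limit SLC26A3 in HT-29 and KCNQ1 in Caco-2.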
